A study of Mus musculus with 4 samples.

Results

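The genes described here are 9 genes of iron storage, uptake and sequestration, chosen by name out of the 54532 genes in the deposited tables: Fth1 and Ftl1, Tfrc, Steap3 and Steap4, Cp, Lcn2, and Aco1 and Ireb2. All 9 were found in every table. 8 passed the filter on low counts, a mean CPM (counts scaled by library size) of 1 or more, which 11640 genes passed. Steap4, a ferrireductase of the plasma membrane and endosomes, had 0 reads in all 4 libraries. A count of 0 allows up to 3 reads, or 0.186 CPM in Hnrnpul1-/- cells with LPS, 0.195 CPM in wild type with LPS, 0.155 CPM in untreated Hnrnpul1-/- cells and 0.158 CPM in untreated wild type.

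The cells were RAW 264.7, an established mouse macrophage line, and poly(A) RNA was sequenced in 4 groups of 1 library each. These were Hnrnpul1-/- cells given LPS (lipopolysaccharide from the bacterial cell wall, which the receptor TLR4 senses) at 100 ng/ml for 10 h, wild-type cells given the same LPS, untreated Hnrnpul1-/- cells and untreated wild-type cells. The sources used here do not say whether the Hnrnpul1-/- cells are 1 clone. The comparisons ask what LPS did to the iron genes in each genotype, and how the genotypes differed with and without LPS.

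Macrophages recycle and store iron. They bring in transferrin-bound iron through the transferrin receptor, reduce it in the endosome, keep it inside the shell of ferritin and release it through ferroportin, while ceruloplasmin oxidizes exported iron. In infection the innate immune system withholds iron from bacteria, partly by lipocalin 2, which binds bacterial siderophores. Inside the cell, the iron regulatory proteins bind a hairpin, the iron-responsive element, when iron is scarce: in a 5′ UTR this blocks translation, and in the 3′ UTR of Tfrc it protects the mRNA from decay. RNA levels such as those given here do not measure translation.

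The hairpins of the 3 members that carry one are shown because the 2 ferritin mRNAs and the receptor mRNA are the targets of the proteins encoded by Aco1 and Ireb2. A script searched GENCODE M21 transcripts (GRCm38), on the sense strand, for C, 5 bases, CAGTGN and 5 bases that pair with the first 5, G-T pairs allowed. Capitals mark the loop, CAGTGN. Each line holds 30 bases of the UTR, 5′ to 3′ as DNA.
Fth1, 5′ UTR, chr19:9982732-9982761, plus strand: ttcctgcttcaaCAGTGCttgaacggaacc
Ftl1, 5′ UTR, chr7:45459778-45459807, minus strand: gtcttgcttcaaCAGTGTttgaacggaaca
Tfrc, 3′ UTR, chr16:32631219-32631248, plus strand: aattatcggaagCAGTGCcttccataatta
Tfrc, 3′ UTR, chr16:32631598-32631627, plus strand: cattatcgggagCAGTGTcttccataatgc
Tfrc, 3′ UTR, chr16:32631663-32631692, plus strand: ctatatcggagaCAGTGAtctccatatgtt
Tfrc, 3′ UTR, chr16:32631710-32631739, plus strand: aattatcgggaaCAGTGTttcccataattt

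Fth1 and Ftl1 each held 1 match and Tfrc held 4. The other 6 members held no match to these letters, which says only that the letters are not in their annotated transcripts. Over all protein-coding transcripts 0.961% of 58797 held a match, and 1.34% of 21877 genes did. The match stood in 4 of 5 annotated transcripts of Fth1, in 1 of 2 of Ftl1 and in 1 of 3 of Tfrc.

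Total counts lay between 17045432 and 17909549. Levels are CPM scaled by TMM, the normalization of edgeR, unless FPKM, the authors' length-scaled unit, is named. A difference is the log2 ratio of the levels in a pair of libraries, given with a 95% interval. No group has a replicate, so no ratio has a replicate check, and library and condition cannot be told apart. The intervals cover counting error only, and reads that carry no molecular identifier may be copies of one molecule. A call required a ratio of 2-fold or more and an interval that left out no change. Hnrnpul1 itself stood at 21.7 CPM in Hnrnpul1-/- cells and 203 CPM in wild type with LPS, and at 23.1 CPM in Hnrnpul1-/- cells and 268 CPM in wild type untreated. Of 10 macrophage markers 9 or 10 had reads in each library, and their summed level was 6014 CPM in Hnrnpul1-/- cells with LPS, 8815 CPM in wild type with LPS, 3418 CPM in untreated Hnrnpul1-/- cells and 3907 CPM in untreated wild type. The gap between genotypes with LPS was mostly Lyz2, at 1245 CPM in Hnrnpul1-/- cells and 3334 CPM in wild type, while Adgre1 (217 CPM in Hnrnpul1-/- cells, 128 CPM in wild type), Itgam (154 CPM in Hnrnpul1-/- cells, 125 CPM in wild type) and Ptprc (356 CPM in Hnrnpul1-/- cells, 323 CPM in wild type) were higher in Hnrnpul1-/- cells. Of the 9 markers tested, 3 had a genotype log2 ratio above 0 with LPS and 6 below, with a median of -0.19. Besides Lyz2, those below were Csf1r (499 CPM in Hnrnpul1-/- cells, 803 CPM in wild type), Cd14, Fcgr1, Spi1 and Cd68. In bulk RNA, fewer cells of a type and less RNA per cell cannot be told apart.

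With LPS, 4 of the 8 measured iron genes were called in each genotype. Fth1, Cp and Lcn2 rose and Steap3 fell in both Hnrnpul1-/- and wild-type cells, while Ftl1, Tfrc, Aco1 and Ireb2 stayed under 2-fold. In Hnrnpul1-/- cells 3 of 8 were called higher, against 11.6% of all genes tested, and 1 was called lower, against 12%. In wild-type cells 3 of 8 were called higher, against 11.2% of all genes tested, and 1 lower, against 10.1%. The median log2 ratio of the 8 was 0.60 in Hnrnpul1-/- cells, beside -0.02 over all genes tested, and 0.73 in wild-type cells, beside -0.0039. Lcn2 passed the low-count filter through its LPS libraries alone, so it had to differ between LPS and untreated. The 2 LPS comparisons share no library.

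No member was called between the genotypes. With LPS, 1.66% of all genes tested were called higher and 1.83% lower in Hnrnpul1-/- cells, and untreated 1.15% were called higher and 0.859% lower. The median log2 ratio of Hnrnpul1-/- over wild type was -0.08 for the 8 members with LPS, beside 0.0013 over all genes, and -0.06 untreated, beside 0.0068. Of the members with more than a few reads, Cp had the ratios farthest from 0. The LPS response of no member was called different between the genotypes, against 1.19% of all genes called higher and 1.84% called lower in that comparison.

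**Figure D1:**
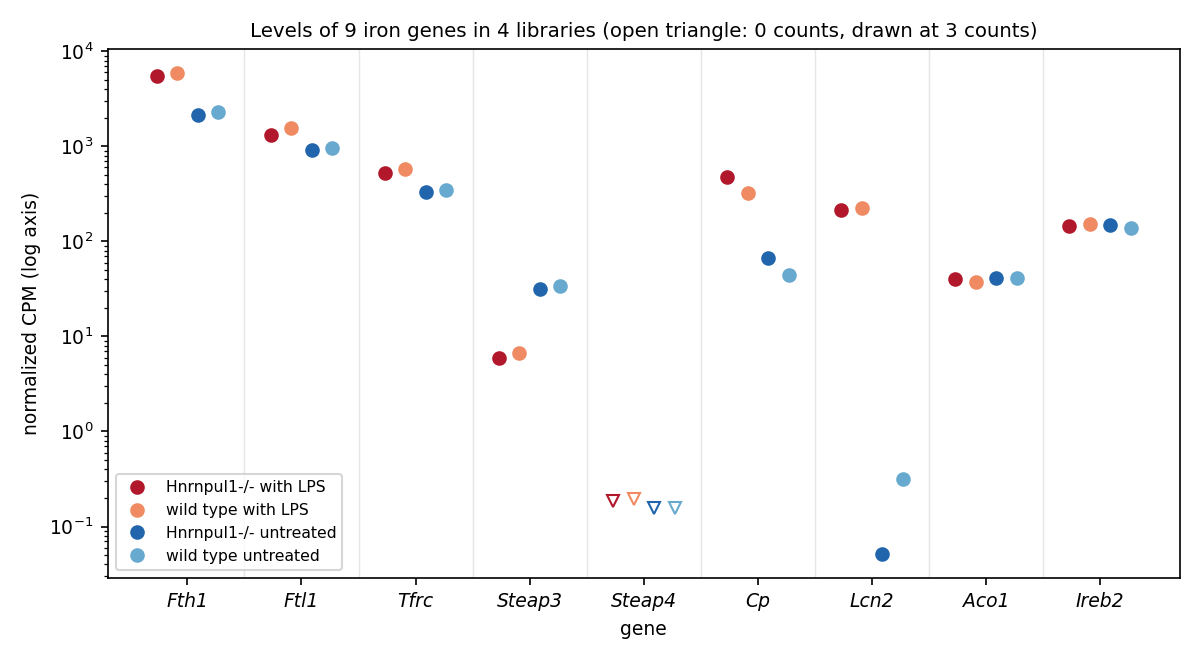
Level of the 9 genes in each library as TMM-normalized CPM (log axis), 1 point per library, with no error bar because each group is 1 library. Fth1, Cp and Lcn2 stand higher in both LPS libraries, Steap3 stands lower in both, and Steap4 has 0 reads.

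Fth1 (ENSMUSG00000024661, chr19:9982703-9985092, plus strand, GRCm38) encodes the ferritin heavy chain, the subunit with ferroxidase activity that oxidizes iron on its way into the shell. It stood at 5521 CPM in Hnrnpul1-/- cells with LPS, 5883 CPM in wild type with LPS, 2163 CPM in untreated Hnrnpul1-/- cells and 2302 CPM in untreated wild type. Both LPS libraries were higher than both untreated ones, and the libraries of the same treatment lay close together. These levels rest on 88890 reads in Hnrnpul1-/- cells and 90321 in wild type with LPS, and on 41892 reads in Hnrnpul1-/- cells and 43732 in wild type untreated.

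The LPS log2 ratio of Fth1 was 1.35 in Hnrnpul1-/- cells (1.34 to 1.37), a 2.55-fold rise. In wild-type cells it was also 1.35 (1.34 to 1.37), a 2.56-fold rise. The difference of the 2 ratios was -0.0016 (-0.03 to 0.02), so the interval held no difference larger than 0.03. Scaled by total counts, the LPS ratios of Fth1 were 1.04 in Hnrnpul1-/- cells (1.02 to 1.06) and 1.06 in wild type (1.04 to 1.07). Both were still called, just past the 2-fold threshold. Between genotypes Fth1 differed by a log2 ratio of -0.09 with LPS (-0.11 to -0.08) and of -0.09 untreated (-0.11 to -0.07), both excluding no change by counting error and both far under 2-fold. In FPKM, Fth1 ranked 3rd of all genes in Hnrnpul1-/- cells with LPS, 2nd in wild type with LPS, 7th in untreated Hnrnpul1-/- cells and 6th in untreated wild type.

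Ftl1 (ENSMUSG00000050708, chr7:45457944-45459884, minus strand) encodes the ferritin light chain, which helps the iron core to form and has no ferroxidase centre. Its level was 1319 CPM in Hnrnpul1-/- cells with LPS, 1567 CPM in wild type with LPS, 915 CPM in untreated Hnrnpul1-/- cells and 955 CPM in untreated wild type. The LPS libraries were again above the untreated ones, by less than for Fth1. With LPS the log2 ratio was 0.53 in Hnrnpul1-/- cells (0.50 to 0.56) and 0.72 in wild-type cells (0.69 to 0.74), so Ftl1 was not called in either genotype. Scaled by total counts, which lowers the LPS ratio of the median gene to -0.33 in Hnrnpul1-/- cells and -0.30 in wild type, these ratios were 0.22 and 0.42. The LPS ratio in Hnrnpul1-/- cells was 0.19 below that in wild type on the log2 scale (difference -0.19, -0.23 to -0.15). The genotype log2 ratio was -0.25 with LPS (-0.28 to -0.22) and -0.06 untreated (-0.09 to -0.03).

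The balance of the 2 ferritin mRNAs shifted towards Fth1 with LPS, and the subunit proteins were not measured. In FPKM, which allows levels of different genes to be compared, Fth1 stood 6.48 times above Ftl1 in Hnrnpul1-/- cells with LPS, 5.81 times in wild type with LPS, 3.66 times in untreated Hnrnpul1-/- cells and 3.73 times in untreated wild type. The change of this ratio with LPS was 0.82 on the log2 scale in Hnrnpul1-/- cells (0.79 to 0.86) and 0.64 in wild-type cells (0.61 to 0.67). Being a ratio of genes within a library, it does not depend on the scaling between libraries. Hnrnpul1-/- over wild type it differed by 0.16 with LPS (0.13 to 0.19) and by -0.03 untreated (-0.06 to 0.01).

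Together the 2 ferritin genes took 0.615% of all counts in Hnrnpul1-/- cells with LPS (0.611 to 0.619%, exact binomial interval) and 0.671% in wild-type cells with LPS (0.667 to 0.675%). Untreated, the share was 0.343% in Hnrnpul1-/- cells (0.341 to 0.346%) and 0.360% in wild-type cells (0.358 to 0.363%). The share was higher in the LPS libraries and lower in Hnrnpul1-/- than in wild-type cells at each treatment, beyond counting error. Ferritin genes have processed copies in the genome, so their counts are uncertain where reads could be split. There were 15 other ferritin-like genes, of which 12 had 0 reads in every library and 1, Ftl1-ps1, had at least 10. Ftl1-ps1 held 609 reads in Hnrnpul1-/- cells with LPS, 663 in wild type with LPS, 444 in untreated Hnrnpul1-/- cells and 482 in untreated wild type, between 2.51% and 2.87% of the Ftl1 count.

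Tfrc (ENSMUSG00000022797, chr16:32608920-32632794, plus strand) encodes transferrin receptor 1, the main route of transferrin-bound iron into the cell. It stood at 530 CPM in Hnrnpul1-/- cells with LPS, 579 CPM in wild type with LPS, 332 CPM in untreated Hnrnpul1-/- cells and 344 CPM in untreated wild type. The order of the 4 libraries was the same as for both ferritin genes. Tfrc had an LPS log2 ratio of 0.67 in Hnrnpul1-/- cells (0.63 to 0.72) and 0.75 in wild-type cells (0.70 to 0.80), neither called. Scaled by total counts they were 0.36 in Hnrnpul1-/- cells and 0.45 in wild type. The difference of these ratios was -0.08 (-0.14 to -0.01). The genotype log2 ratio was -0.13 with LPS (-0.17 to -0.09) and -0.05 untreated (-0.10 to -0.0024).

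Tfrc thus stood higher with LPS in the same libraries as the ferritin mRNAs, but by a smaller ratio than Fth1. In FPKM, Fth1 was 74.4 times above Tfrc in Hnrnpul1-/- cells with LPS, 72.6 times in wild type with LPS, 46.5 times in untreated Hnrnpul1-/- cells and 47.8 times in untreated wild type. The log2 change of Tfrc over Fth1 with LPS was -0.68 in Hnrnpul1-/- cells (-0.73 to -0.63) and -0.60 in wild-type cells (-0.65 to -0.55).

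Steap3 (ENSMUSG00000026389, chr1:120190757-120272705, minus strand) encodes the endosomal ferrireductase that reduces iron released from transferrin. Its level was 5.90 CPM in Hnrnpul1-/- cells with LPS, 6.77 CPM in wild type with LPS, 31.3 CPM in untreated Hnrnpul1-/- cells and 33.7 CPM in untreated wild type. It was the member that fell: its counts were 95 and 104 in the Hnrnpul1-/- and wild-type LPS libraries, against 606 and 640 in the untreated libraries of the same genotypes. Its LPS log2 ratio was -2.41 in Hnrnpul1-/- cells (-2.73 to -2.09), a level 5.30-fold lower. It was -2.31 in wild-type cells (-2.63 to -2.01), a level 4.97-fold lower.

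Among the 11640 genes Steap3 had the 190th lowest LPS ratio in Hnrnpul1-/- cells and the 182nd lowest in wild-type cells. The receptor and the reductase of the transferrin cycle therefore stood on opposite sides of no change with LPS in each genotype, Tfrc under the 2-fold threshold and Steap3 beyond it. The genotype log2 ratio of Steap3 was -0.20 with LPS (-0.62 to 0.22) and -0.11 untreated (-0.27 to 0.06). Neither difference exceeded counting error, and the interval with LPS was the wider, at 95 and 104 reads.

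**Figure D2:**
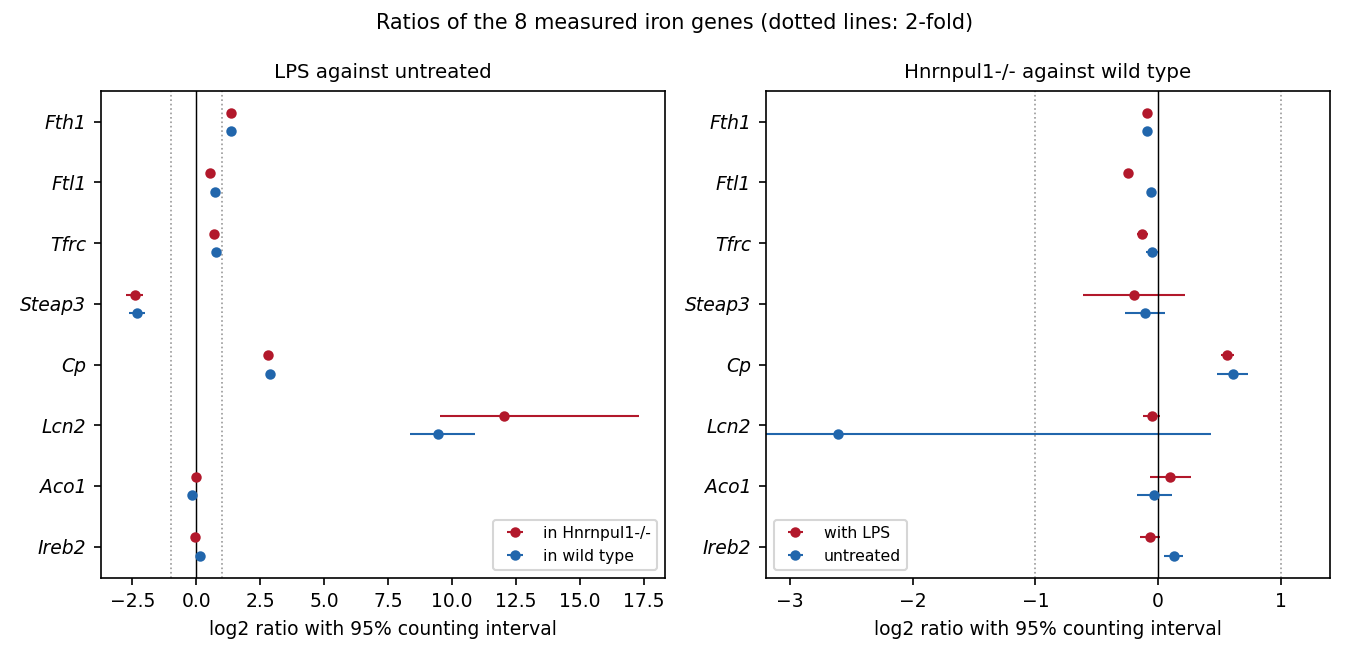
Log2 ratios of the 8 measured genes with 95% counting intervals, LPS over untreated in each genotype (left panel) and Hnrnpul1-/- over wild type in each treatment (right panel). In the left panel Fth1, Cp and Lcn2 lie beyond 2-fold to the right and Steap3 to the left in both genotypes. In the right panel Cp lies at 0.57 and 0.61, and the interval of untreated Lcn2 runs past the axis to -8.14.

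Cp (ENSMUSG00000003617, chr3:19957054-20009145, plus strand) encodes ceruloplasmin, a copper-containing ferroxidase that oxidizes iron leaving the cell and is known as an acute-phase protein. Its level was 476 CPM in Hnrnpul1-/- cells with LPS, 322 CPM in wild type with LPS, 67.4 CPM in untreated Hnrnpul1-/- cells and 44.2 CPM in untreated wild type. The reads numbered 7661 in Hnrnpul1-/- cells and 4937 in wild type with LPS, and 1306 in Hnrnpul1-/- cells and 839 in wild type untreated. Both LPS libraries were above both untreated ones, and within each treatment the Hnrnpul1-/- library was the higher.

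The LPS log2 ratio of Cp was 2.82 in Hnrnpul1-/- cells (2.73 to 2.90), a 7.06-fold rise. In wild-type cells it was 2.86 (2.76 to 2.97), a 7.28-fold rise. These ranked 357th and 346th from the highest of 11640 genes in Hnrnpul1-/- and wild-type cells. The difference between them was -0.05 (-0.18 to 0.09).

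Between genotypes the log2 ratio of Cp was 0.57 with LPS (0.51 to 0.62), 1.48 times the wild-type level. Untreated it was 0.61 (0.48 to 0.74), 1.53 times the wild-type level. Both ratios fell short of 2-fold and neither was called. They ranked 625th from the highest with LPS and 417th untreated, and 111 of 11640 genes (0.954%) were at or past 0.57 in both treatments with intervals above 0. An additive model of genotype and LPS over the 4 libraries, fitted with edgeR's quasi-likelihood test, gave Cp a genotype log2 ratio of 0.59 with a Benjamini-Hochberg adjusted p of 0.0071. In that fit 223 of 11640 genes (1.92%) had an adjusted p under 0.05 for genotype, 1 of the 8 members among them. That model assumes the same genotype ratio with and without LPS and has 1 residual degree of freedom, and Cp was higher in 2 of 2 Hnrnpul1-/- libraries. The 2 libraries of a genotype differ in treatment and are not replicates. The p values of this fit therefore do not measure variation between independent cultures or lines. The other 7 members had adjusted p values of 0.399 to 0.93 for genotype in this fit.

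Cp overlaps Hps3, a gene on the other strand, over 13201 bases of the gene spans, introns included. The sources used here do not say whether reads were counted by strand, so any reads in exons of both genes cannot be told apart. How far the exons overlap was not examined. Hps3 had 644 reads in Hnrnpul1-/- cells with LPS, 769 in wild type with LPS, 1679 in untreated Hnrnpul1-/- cells and 1505 in untreated wild type, fewer with LPS where Cp had more. Ceruloplasmin is best known as a liver product. Of 8 hepatocyte markers 6 or 7 were at 0 in each library, Alb, Apoa1 and Ttr in all 4, and their summed counts were 1 in each LPS library, 11 in untreated Hnrnpul1-/- cells and 9 in untreated wild type.

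Lcn2 (ENSMUSG00000026822, chr2:32384633-32388252, minus strand) encodes lipocalin 2, a secreted protein that captures the siderophores with which bacteria collect iron. Its level was 216 CPM in Hnrnpul1-/- cells with LPS and 223 CPM in wild type with LPS. Untreated it was 0.0516 CPM in Hnrnpul1-/- cells and 0.316 CPM in wild type. These are 3471 and 3428 reads with LPS, against 1 and 6 reads untreated, in the Hnrnpul1-/- and wild-type library of each treatment.

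On the log2 scale the LPS ratio was 12.03 in Hnrnpul1-/- cells (9.55 to 17.33), or 4175-fold with an interval of 749-fold to 164963-fold. In wild-type cells it was 9.47 (8.34 to 10.91), or 707-fold with an interval of 324-fold to 1928-fold. The size depends on how the few untreated reads are treated: from the deposited FPKM the log2 ratio was 9.39 in Hnrnpul1-/- cells and 8.57 in wild type with 0.1 added to each value, and 6.31 in Hnrnpul1-/- cells and 6.22 in wild type with 1 added. Lcn2 ranked 3rd and 12th from the highest of all ratios in Hnrnpul1-/- and wild-type cells. The difference between genotypes, 2.56, had an interval of -0.49 to 5.62 and rests on 1 and 6 untreated reads. With LPS, where reads were many, the genotype log2 ratio was -0.05 (-0.12 to 0.02). Untreated it was -2.61 (-8.14 to 0.43), and a difference was not detectable at this depth.

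Lcn2 is also a granule protein of neutrophils. Of 12 neutrophil granule markers 7 were at 0 in Hnrnpul1-/- cells with LPS, 8 in wild type with LPS, 10 in untreated Hnrnpul1-/- cells and 9 in untreated wild type. Ly6g, Elane, Ngp, Ltf and S100a9 had 0 reads in all 4 libraries. S100a8 had 8 reads in Hnrnpul1-/- cells and 2 in wild type with LPS, Camp had 6 in Hnrnpul1-/- cells and 2 in wild type with LPS, and both had 0 reads untreated, so they moved with Lcn2, and their part in the result was not tested. The summed level of the list was 10.3 CPM in Hnrnpul1-/- cells with LPS, 8.14 CPM in wild type with LPS, 6.14 CPM in untreated Hnrnpul1-/- cells and 7.001 CPM in untreated wild type, mostly Cebpe.

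A stretch of the Lcn2 promoter is shown because this gene had the largest LPS ratio of the 9, and NF-kB, the transcription factor that TLR4 activates, is known to drive it. It runs from 111 to 59 bases before the RefSeq start (GRCm38.p6, chr2:32387798-32387850, minus strand), in no exon of the GENCODE M21 transcripts of Lcn2, some of which start further upstream. It is written 5′ to 3′, and capitals mark letters of an NF-kB motif (GGG, any 5 bases, CC), matched on the opposite strand 102 to 93 bases before the start.
Lcn2: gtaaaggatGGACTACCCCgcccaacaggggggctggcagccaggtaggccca

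These letters are common: searched on both strands, they were in 50.8% of 32817 RefSeq promoter windows, each from 250 bases before to 50 after a start. Of 15 windows over the 9 members 14 held them, at least 1 for each gene. Some of the 15 overlap, as those of Tfrc and those of Cp do, so they are not independent. The share of 50.8% is per window, not per gene. The C/EBP letters TTNNGNAAT were in 11.5% of all windows and 2 of the 15. The antioxidant response element letters TGANNNNGC were in 41.3% of all windows and 3 of the 15. The Lcn2 window held neither of those.

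Of 8 genes for factors known to act on Lcn2, 7 were called higher with LPS in each genotype, beside 11.6% of all genes in Hnrnpul1-/- cells and 11.2% in wild type. None was called between genotypes, beside 1.66% of all genes called higher and 1.83% lower with LPS and 1.15% higher and 0.859% lower untreated. Their median LPS log2 ratio was 2.19 in Hnrnpul1-/- cells, beside -0.02 over all genes, and 1.73 in wild-type cells, beside -0.0039. The list was chosen with earlier results of these data known, so its counts and medians are a description. A link between these genes and the Lcn2 ratio was not tested. Nfkbiz encodes IκBζ, the nuclear cofactor on which Lcn2 induction is known to depend. It stood at 402 CPM in Hnrnpul1-/- cells with LPS, 250 CPM in wild type with LPS, 8.88 CPM in untreated Hnrnpul1-/- cells and 7.53 CPM in untreated wild type. Its genotype log2 ratio with LPS was 0.69 (0.63 to 0.74), not called, while that of Lcn2 was -0.05. Cebpd, a C/EBP family factor, rose by 3.53 on the log2 scale in Hnrnpul1-/- cells and by 3.60 in wild type, and Bcl3, a cofactor of NF-kB, by 3.76 in Hnrnpul1-/- cells and by 3.58 in wild type. Nfkb2 had the widest genotype ratio of the 8 with LPS, 0.86 (0.79 to 0.93). Rela was the gene not called, with LPS ratios of 0.47 in Hnrnpul1-/- cells and 0.28 in wild type.

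Aco1 (ENSMUSG00000028405, chr4:40143081-40198338, plus strand) encodes iron regulatory protein 1, which is a cytosolic aconitase when it carries an iron-sulfur cluster. It stood at 39.996 CPM in Hnrnpul1-/- cells with LPS, 37.3 CPM in wild type with LPS, 40.8 CPM in untreated Hnrnpul1-/- cells and 41.7 CPM in untreated wild type. The 4 levels lay close together. LPS over untreated, the log2 ratio was -0.03 in Hnrnpul1-/- cells (-0.18 to 0.12) and -0.16 in wild-type cells (-0.32 to -0.0029). The genotype log2 ratio was 0.10 with LPS (-0.06 to 0.26) and -0.03 untreated (-0.18 to 0.11).

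Ireb2 (ENSMUSG00000032293, chr9:54863789-54912530, plus strand) encodes iron regulatory protein 2, which is removed by the ubiquitin ligase subunit FBXL5 when iron is plentiful. Its level was 146 CPM in Hnrnpul1-/- cells with LPS, 152 CPM in wild type with LPS, 149.9 CPM in untreated Hnrnpul1-/- cells and 137 CPM in untreated wild type. The lowest of the 4 was untreated wild type. LPS over untreated, the log2 ratio was -0.04 in Hnrnpul1-/- cells (-0.12 to 0.04) and 0.15 in wild-type cells (0.07 to 0.23), and their difference was -0.19 (-0.31 to -0.08). Scaled by total counts the wild-type ratio turned to -0.15 and that in Hnrnpul1-/- cells was -0.35. The genotype log2 ratio was -0.07 with LPS (-0.15 to 0.02) and 0.13 untreated (0.05 to 0.20).

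The level of each of these mRNAs thus varied by less than 1.5-fold over the 4 libraries. In FPKM, Ireb2 stood 1.73 times above Aco1 in Hnrnpul1-/- cells with LPS, 1.94 times in wild type with LPS, 1.74 times in untreated Hnrnpul1-/- cells and 1.56 times in untreated wild type. Fbxl5 had LPS log2 ratios of -0.32 in Hnrnpul1-/- cells (-0.46 to -0.19) and 0.02 in wild-type cells (-0.12 to 0.17), and was not called.

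By FPKM the order of the 9 genes with LPS was Fth1, Ftl1, Tfrc, Lcn2, Cp, Ireb2, Aco1, Steap3 and Steap4 in both genotypes. Fth1 had 6184 FPKM in Hnrnpul1-/- cells and 6563 FPKM in wild type, and Ftl1 had 955 FPKM in Hnrnpul1-/- cells and 1130 FPKM in wild type. Tfrc and Lcn2 were neighbours, with 83.1 and 79.7 FPKM in Hnrnpul1-/- cells and 90.4 and 82.2 FPKM in wild type. Lcn2 ranked 732nd of all genes in Hnrnpul1-/- cells with LPS and 706th in wild type with LPS, against 17654th and 14693rd in the untreated libraries of the same genotypes.

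Untreated, the order ran Fth1, Ftl1, Tfrc, Ireb2 and Aco1 in both genotypes, and Lcn2 and Steap4 came last. Cp and Steap3 stood between them in opposite order: Cp had 6.77 FPKM and Steap3 5.26 FPKM in Hnrnpul1-/- cells, while Cp had 4.45 FPKM and Steap3 5.68 FPKM in wild-type cells. With LPS they were far apart, Cp at 48.2 FPKM and Steap3 at 1.00 FPKM in Hnrnpul1-/- cells, and Cp at 32.5 FPKM and Steap3 at 1.15 FPKM in wild type. With 1 library per group, no spread over samples shows which neighbours in these orders differ.

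**Figure D3:**
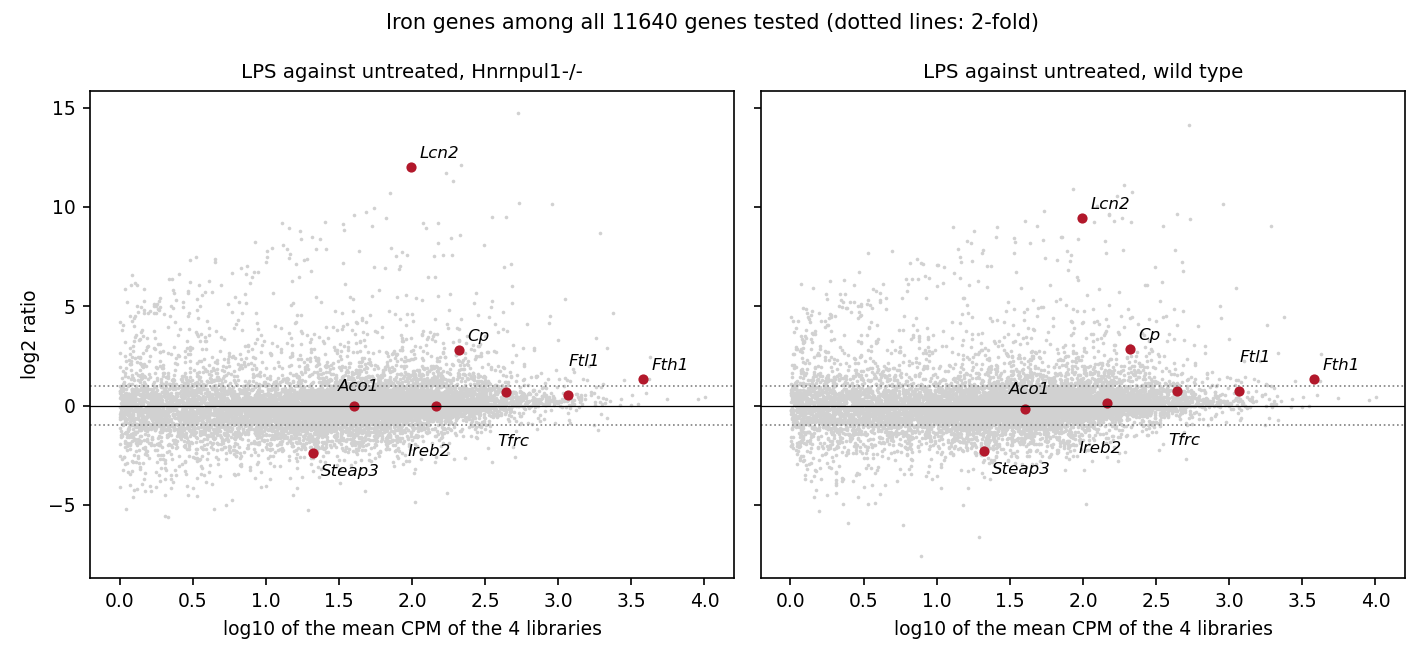
LPS log2 ratio against the log10 of the mean CPM of the 4 libraries for all 11640 genes tested (grey) and the 8 measured iron genes (red), in Hnrnpul1-/- cells (left) and wild-type cells (right). Fth1 lies at the far right among the most abundant mRNAs just above the 2-fold line, and Lcn2 lies among the highest ratios.

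The wider iron pathway was described by 5 lists holding 95 genes in the tables, of which 67 were tested. With LPS, most listed genes were not called. Of the iron-responsive element list, which holds Fth1, Ftl1 and Tfrc, 4 of 9 tested mRNAs rose in each genotype and none fell, beside 11.6% of all genes higher and 12% lower in Hnrnpul1-/- cells and 11.2% higher and 10.1% lower in wild type. The median log2 ratio was 0.67 in Hnrnpul1-/- cells, beside -0.02 over all genes, and 0.75 in wild-type cells, beside -0.0039. The 4 were Fth1, Slc11a2, Slc40a1 and Hao1, the last encoding a peroxisomal hydroxyacid oxidase. The lists overlap, so Slc11a2 is counted again under uptake and reduction and Slc40a1 again among the storage partners and regulators. Of the 4, transcripts of Fth1 (4 of 5) and Slc40a1 (1 of 4) held a match to the hairpin letters, and those of Slc11a2 (0 of 6) and Hao1 (0 of 1) held none. None of the 9 tested genes of this list was called between genotypes. Of all genes tested, 1.66% were called higher and 1.83% lower with LPS, and 1.15% higher and 0.859% lower untreated.

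Slc40a1 encodes ferroportin, the known iron exporter, and 1 of its 4 annotated transcripts held a hairpin match like that of the ferritin mRNAs.
Slc40a1, 5′ UTR, chr1:45925464-45925493, minus strand: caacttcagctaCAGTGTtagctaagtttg
Its level was 24.5 CPM in Hnrnpul1-/- cells with LPS, 43.4 CPM in wild type with LPS, 8.73 CPM in untreated Hnrnpul1-/- cells and 6.79 CPM in untreated wild type. The LPS log2 ratio was 1.49 in Hnrnpul1-/- cells (1.23 to 1.76) and 2.68 in wild-type cells (2.40 to 2.96). Their difference, -1.19 (-1.56 to -0.81), was called. It was the only such call among the storage partners and regulators, where 10 of 19 listed genes were tested. It was also the only such call among the 9 tested of the iron-responsive element list. Of all genes tested, 1.84% were called lower and 1.19% higher in this comparison. Ferroportin and Cp, which oxidizes the iron it exports, thus both rose with LPS, but with LPS the log2 ratio of Hnrnpul1-/- over wild type was -0.82 for Slc40a1 (-1.01 to -0.64) and 0.57 for Cp, neither called.

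Among genes of iron uptake and reduction 7 of 15 were tested, and 2 rose and 1 fell with LPS in each genotype, beside the shares of all genes given for the iron-responsive element list. Slc11a2, the DMT1 transporter that carries iron out of the endosome, stood at 143 CPM in Hnrnpul1-/- cells with LPS, 158 CPM in wild type with LPS, 35.6 CPM in untreated Hnrnpul1-/- cells and 39.6 CPM in untreated wild type. Its LPS log2 ratio was 2.0004 in Hnrnpul1-/- cells and 1.9993 in wild-type cells. Slc11a1, the NRAMP1 transporter of the phagosome, stood at 17.4 CPM in Hnrnpul1-/- cells with LPS, 38.2 CPM in wild type with LPS, 5.73 CPM in untreated Hnrnpul1-/- cells and 7.05 CPM in untreated wild type.

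Slc11a1 was called lower in Hnrnpul1-/- cells with LPS, at a log2 ratio of -1.13 (-1.34 to -0.93), and untreated the ratio was -0.30 (-0.68 to 0.07). Hfe, a partner of Tfrc at the cell surface, fell with LPS by a log2 ratio of -2.19 in Hnrnpul1-/- cells (-2.72 to -1.70) and -1.45 in wild-type cells (-1.85 to -1.07). Lrp1, a receptor for heme bound to hemopexin, stood at 302 CPM in Hnrnpul1-/- cells and 564 CPM in wild type with LPS, a log2 ratio of -0.90 (-0.95 to -0.85), not called. The median genotype log2 ratio of the list with LPS was -0.29, beside 0.0013 over all genes. With LPS 1 of its 7 tested genes was called lower and 0 higher, beside 1.83% lower and 1.66% higher of all genes. No gene of the list was called untreated, beside 1.15% of all genes called higher and 0.859% lower.

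Of 17 tested heme genes, 2 rose and 1 fell with LPS in Hnrnpul1-/- cells, and 3 rose and 1 fell in wild-type cells, which is near the shares of all genes called in these comparisons (11.6% higher and 12% lower in Hnrnpul1-/- cells, 11.2% higher and 10.1% lower in wild type). Hmox1, heme oxygenase 1, which frees iron from heme, stood at 1164 CPM in Hnrnpul1-/- cells with LPS, 2522 CPM in wild type with LPS, 64.9 CPM in untreated Hnrnpul1-/- cells and 77.8 CPM in untreated wild type. Its genotype log2 ratio was -1.12 with LPS, called, and -0.26 untreated, not called. Abcb6, a porphyrin transporter, was the other gene of the list called lower in Hnrnpul1-/- cells with LPS, at -1.14 (-1.85 to -0.47). Its levels there were 1.74 CPM in Hnrnpul1-/- cells and 3.84 CPM in wild type, from 28 and 59 reads. These are 2 of 17 heme genes called lower and 0 higher, beside 1.83% lower and 1.66% higher of all genes tested. With LPS, Hmox1 and the ferritin genes therefore stood lower in Hnrnpul1-/- than in wild-type cells by different sizes: -1.12 for Hmox1, -0.25 for Ftl1 and -0.09 for Fth1.

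Mitochondrial iron and iron-sulfur cluster genes gave no call: none of 26 tested was called higher or lower in any of the 4 comparisons. With LPS, 11.6% of all genes were called higher and 12% lower in Hnrnpul1-/- cells, and 11.2% and 10.1% in wild type. Between genotypes the shares higher and lower were 1.66% and 1.83% with LPS, and 1.15% and 0.859% untreated. The median LPS log2 ratio of the 26 was -0.14 in Hnrnpul1-/- cells, beside -0.02 over all genes, and -0.18 in wild-type cells, beside -0.0039. Among the storage partners Ncoa4, which delivers ferritin to the lysosome, had LPS log2 ratios of -0.60 in Hnrnpul1-/- cells (-0.72 to -0.48) and -0.31 in wild-type cells (-0.43 to -0.19). Pcbp1 and Pcbp2, whose proteins are iron chaperones for ferritin, had LPS log2 ratios between -0.17 and 0.03 in both genotypes.

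**Figure D4:**
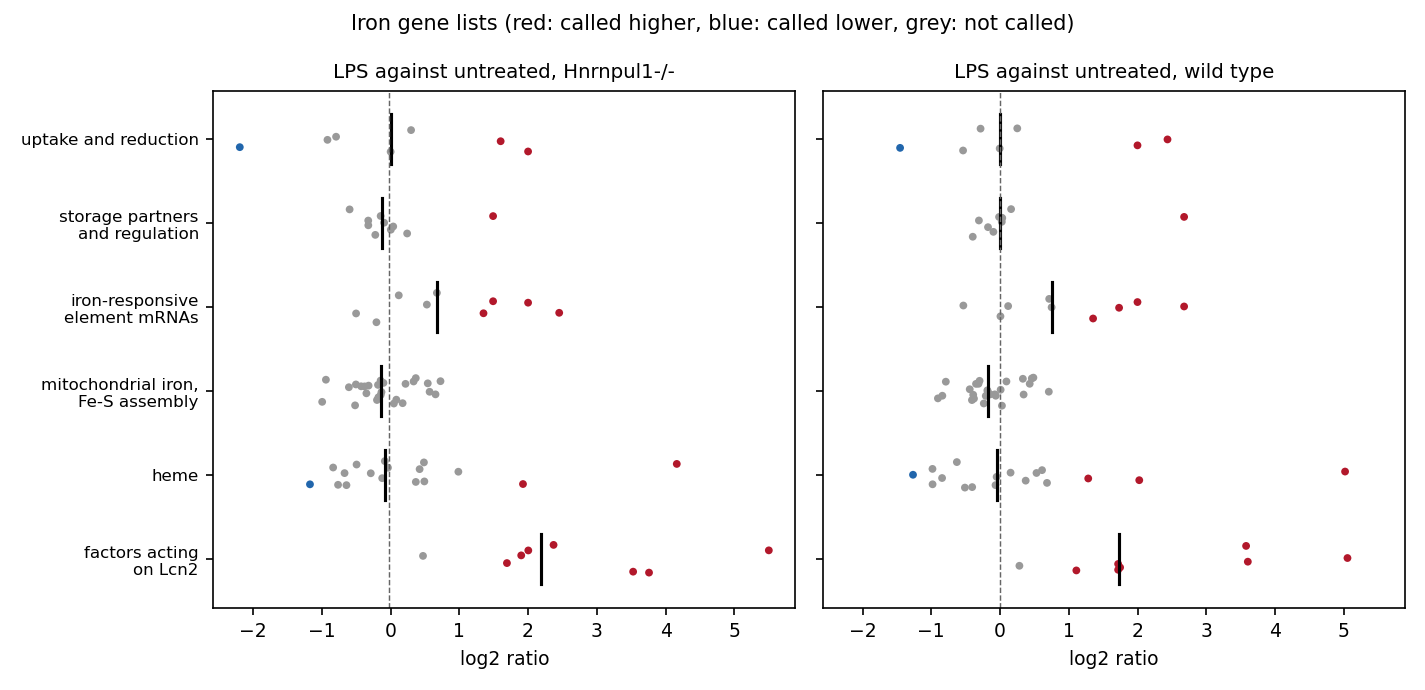
Log2 ratio of every tested gene of the iron lists and the Lcn2 factor list, 1 point per gene, for LPS over untreated in Hnrnpul1-/- cells and in wild-type cells (red called higher, blue called lower, grey not called; black bars mark list medians and the dashed line the median of all genes). The Lcn2 factors lie to the right with 7 of 8 called, and the mitochondrial genes lie around 0 with none called.

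**Figure D5:**
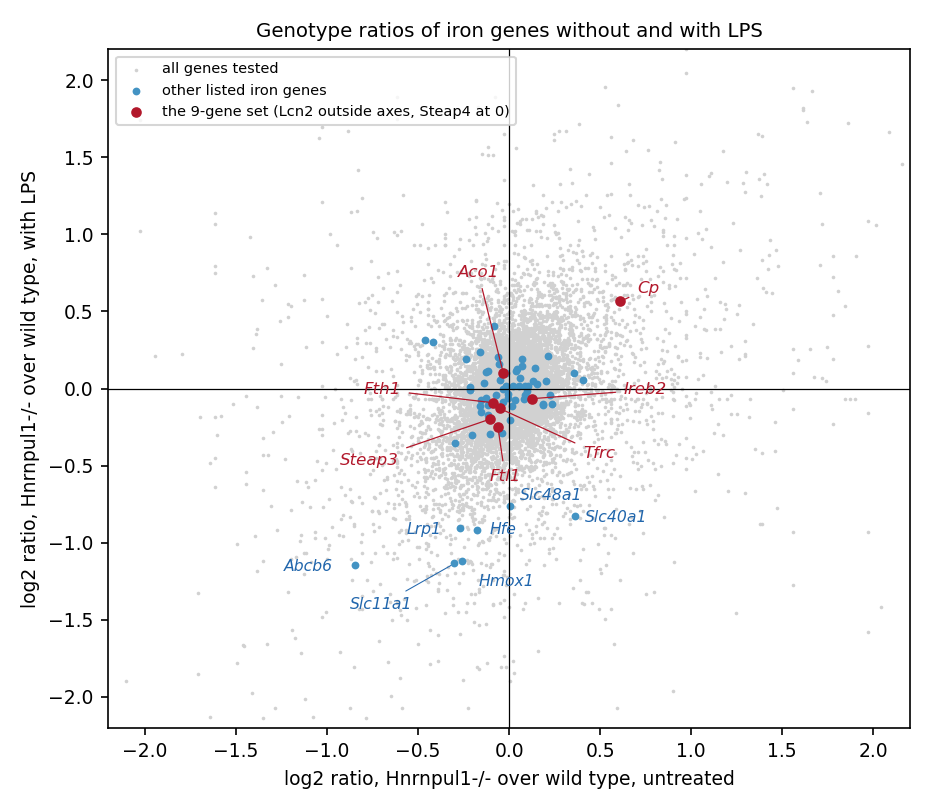
Log2 ratio of Hnrnpul1-/- over wild type untreated (horizontal) and with LPS (vertical) for all genes tested (grey), other listed iron genes (blue) and the 9-gene set (red), with Lcn2 and some grey points outside the axes and Steap4 at 0 reads. Cp lies apart at 0.61 and 0.57, the other plotted members lie within 0.25 of 0, and Hmox1, Slc11a1 and Abcb6 lie below -1 on the vertical axis.

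Genes with the pattern most like each member over the 4 libraries were taken by the Euclidean distance of centred log2 CPM, 2 for each of the 8 measured members. Fth1 lay nearest to Bnip3 (distance 0.0363) and Lpcat2 (0.0390). Steap3 lay nearest to Alox5 (0.0518) and Ccdc18 (0.0943). Alox5 stood at 14.3 CPM in Hnrnpul1-/- cells with LPS, 15.9 CPM in wild type with LPS, 76.7 CPM in untreated Hnrnpul1-/- cells and 82.5 CPM in untreated wild type. Tfrc lay nearest to Pdia4 (0.0140) and Atxn7, Ftl1 to Ap3m2 and Mrpl30, Ireb2 to Dcaf10 and Mga, and Aco1 to Utp3 and Akt1. Cp had more distant neighbours, Map1b (0.163) and Treml2 (0.217), and those of Lcn2 were the farthest, Ifi202b (1.60) and Ifi209 (1.69). The distances from Lcn2 rest on its 1 and 6 untreated reads in Hnrnpul1-/- and wild-type cells. Ifi209 stood at 0.103 CPM in untreated Hnrnpul1-/- cells and 0 CPM in untreated wild type. By the deposited FPKM as log2(value + 1), neither gene remained a neighbour of Lcn2. With 4 libraries many genes share a pattern by the LPS difference alone, so the list is a description.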

How the data were processed

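Poly(A) RNA of 4 RAW 264.7 cultures was sequenced. The authors deposited raw read counts for 54532 genes. The authors' FPKM divide the count by gene length and by a library constant, which was 0.927 times the total count in Hnrnpul1-/- cells with LPS, 0.932 in wild type with LPS, 1.16 in untreated Hnrnpul1-/- cells and 1.15 in untreated wild type. HISAT2 2.0.5, featureCounts 1.5.0-p3 and CASAVA 1.8 are named in the submitters' processing notes, with builds GRCm38 and mm10. The strand setting was not given in the sources used here. TMM factors (edgeR 4.0.16, R 4.3.3) over the 11640 genes of mean CPM 1 or more were 0.899 in Hnrnpul1-/- cells and 0.901 in wild type with LPS, and 1.12 in Hnrnpul1-/- cells and 1.11 in wild type untreated. Ratios carried exact conditional (Clopper-Pearson) 95% intervals (scipy 1.17.1), and a count of 0 entered as 3. The interaction is the LPS log2 ratio in Hnrnpul1-/- cells minus the same in wild type, its interval by the delta method. Total counts were 17909549 in Hnrnpul1-/- cells and 17045432 in wild type with LPS, and 17361615 in Hnrnpul1-/- cells and 17162124 in wild type untreated.

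The members, lists and rules were chosen with earlier results of these data known. Named genes are the 9 members, Hnrnpul1, up to 4 genes per list with the largest absolute ratio, 2 pattern neighbours per measured member and ferritin-like genes with at least 10 reads. Fbxl5, Ncoa4, Pcbp1, Pcbp2 and Hps3 were named for their link to a member, after their values were seen. In Hnrnpul1-/- cells with LPS, wild type with LPS, untreated Hnrnpul1-/- cells and untreated wild type, erythroid markers summed to 3, 11, 8 and 16 reads, lymphoid markers to 31, 62, 3 and 0, and epithelial and fibroblast markers to 0, 0, 3 and 0. Alternatives tried were total counts, DESeq2 1.42.0 size factors, other filters, a 1.5-fold rule, the deposited FPKM as log2(value + 1) and log2(value + 0.1), and the additive model. IRE matches and promoter windows came from GENCODE M21 and RefSeq. Protein sequences were not analysed here.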

Additional observations from a re-analysis of the deposited data

Results flagged for a closer look

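For 3 pairs of ratios the same contrast ran in opposite directions in its 2 pairs of libraries, and these differences were not tested, since each group is 1 library. Ireb2 had an LPS log2 ratio of -0.043 in Hnrnpul1-/- cells and 0.15 in wild-type cells. Its genotype log2 ratio was -0.066 with LPS and 0.13 untreated, which is the same difference of the 4 libraries read the other way. Aco1 had a genotype log2 ratio of 0.10 with LPS and -0.032 untreated. With total counts the Ireb2 LPS ratios were -0.35 in Hnrnpul1-/- cells and -0.15 in wild type, of the same sign. All 6 ratios are under 2-fold, and 4 of them have counting intervals that include 0.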

How the results depend on the processing

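No paired analysis was possible because the labels give no replicate numbers, and with 1 library per group no replicate could be left out. The additive model, which takes genotype as a term, is the nearest to a blocked fit. No member's called ratio changed direction or lost its call under any alternative run. The 8 measured members gave 280 log2 values under the alternatives, of which 268 kept their direction and call (called ratios) or stayed within their counting interval (ratios not called), 8 moved with total counts and 4 became called under the 1.5-fold rule. Total counts shift the median of all genes to -0.33 with LPS in Hnrnpul1-/- cells and -0.30 in wild type, and give, in the same 2 comparisons, 0.22 and 0.42 for Ftl1, 0.36 and 0.45 for Tfrc, -0.35 and -0.15 for Ireb2 and -0.34 and -0.46 for Aco1, so the Ireb2 ratio in wild type turned below 0. With total counts 8 iron list genes were called lower with LPS in each genotype, against 2 with TMM, and calls among all genes numbered 2156 lower in Hnrnpul1-/- cells and 1904 in wild type, with 31.4% and 33.9% of calls higher against 49.0% and 52.6% with TMM. FPKM as log2(value + 1) shrank the ratios of genes with low values: Lcn2 with LPS gave 6.31 in Hnrnpul1-/- cells and 6.22 in wild type, its untreated genotype ratio -0.13 and its difference in LPS response 0.087, and Steap3 with LPS gave -1.65 in Hnrnpul1-/- cells and -1.64 in wild type. The 1.5-fold rule called 4 members higher with LPS in Hnrnpul1-/- cells and 5 in wild type, against 3 in each, and 1 (Cp) higher in untreated Hnrnpul1-/- cells, against 0. Over protein-coding counts the ferritin share was 0.631%, 0.689%, 0.352% and 0.370% in Hnrnpul1-/- cells with LPS, wild type with LPS, untreated Hnrnpul1-/- cells and untreated wild type. Among all genes, Hnrnpul1-/- over wild type with LPS gave 193 higher and 213 lower calls, against 384 and 402 with no filter, 42 and 60 at a mean CPM of 10, 463 and 524 at 1.5-fold, 53 and 48 by FPKM as log2(value + 1), and 58 and 29 in the additive model. Untreated, the 134 higher and 100 lower calls became 303 and 262, 27 and 16, 316 and 253, and 24 and 14 under the first 4 of these. For the difference in LPS response, 138 higher and 214 lower became 245 and 356, 21 and 42, 307 and 449, and 59 and 52 (53.2% higher, against 39.2%). With LPS, 1345 higher and 1398 lower in Hnrnpul1-/- cells and 1309 and 1180 in wild type became 2247 and 2448, and 2202 and 2230, at 1.5-fold, while lower calls numbered 793 and 691 at a mean CPM of 10, and 724 and 625 by FPKM, in Hnrnpul1-/- cells and in wild type. By FPKM as log2(value + 1), 3 of 16 pattern neighbours remained. Counts of reads limit Lcn2 untreated (1 and 6 reads) and Steap3 with LPS (95 and 104 reads), in Hnrnpul1-/- and wild-type cells.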
